A study of Mus musculus with 69 samples.

Results

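The genes described here encode the acidifying machinery, the hydrolases and the membrane proteins of the lysosome, together with the MiT transcription factors that drive many of them. They were listed by name, with earlier results of these data known. The 42 gene symbols, with the cathepsins left out, were looked up in the gene name column of a count table of primary mouse microglia. All 42 were found among its 54532 rows, and all 42 were among the 14468 genes abundant enough to test there. The set holds 6 V0 and 8 V1 subunits of the vacuolar ATPase and 2 accessory proteins of that pump. It further holds 7 glycosidases and glycan hydrolases, 4 lipid hydrolases and activators, 3 other lumen proteins, 9 membrane proteins and 3 MiT factors.

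The study concerned the RNA sensor Tlr7 and sex differences in demyelination. Primary microglia from postnatal day 1 to 3 mice formed 8 groups of 3 libraries: males and females, wild type (WT) or Tlr7 knockout (labelled TLR7:-/- in both sexes), each with DMSO or with myelin. Hippocampus from WT animals that received either saline or the Tlr7 agonist gardiquimod formed 4 groups of 7, in which the males were 12.12 months and the females 9.60 months old. Hippocampus of the genotype written PSUK+, whose meaning is not spelled out, was taken with a control treatment (3 females, 3 males) or with a treatment labelled only as inhibitor (5 females, 6 males), at recorded ages between 5.50 and 6.85 months. The labels do not say whether the microglia libraries came from separate animals or cultures, so their p-values measure only the spread between these libraries. Neither the myelin dose nor the hours of exposure are given there, and the knockout is not described as cell-specific. Every library is labelled as nuclear RNA, and the extraction text speaks of RNA from microglia for all of them, although 45 are labelled hippocampus.

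Lysosomes break down what a cell takes up or recycles. The vacuolar ATPase, built from a membrane-embedded V0 sector and a cytosolic V1 sector, pumps protons into the lumen, and the resulting acidity activates the hydrolases. TFEB, TFE3 and MITF bind E-box-like sites, the CLEAR elements, in front of many lysosomal genes, and they are controlled largely by phosphorylation and movement into the nucleus. Microglia that engulf myelin must digest its glycosphingolipids, sphingomyelin and cholesterol in this compartment, and Tlr7 itself signals from acidified endosomes and lysosomes.

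The CLEAR core is a sequence that can be looked for in front of these genes, so the stretches that hold it are shown first. RefSeq promoter windows (GRCm38.p6, 250 bases before to 50 bases after a transcript start) were found for 35 of the 42 genes, as 43 windows. Asah1, Atp6v1c1, Atp6v1h, Atp6v1g1, Atp6v0d2, Npc1 and Atp6v1b2 had none. The 7 bases TCACGTG, read on either strand (the reverse complement is CACGTGA), lay in 10 of the 43 windows, or 23.3%, against 3.77% of all 32851 windows in the table. Each of these windows belonged to a different gene: Atp6v0b, Atp6v0d1, Atp6v0e, Atp6v1a, Gla, Glb1, Naglu, Sgsh, Lamp1 and Mcoln1. The palindrome TCACGTGA, which contains TCACGTG, lay in 5 of the 43 windows (11.6%, against 0.974% of all windows), those of Atp6v0d1, Atp6v0e, Atp6v1a, Gla and Mcoln1. The inner 6 bases CACGTG alone lay in the same 10 windows and in 7.15% of all windows. A related sequence, TCATGTG, lay in 5 windows (11.6%, against 3.77%). Capitals below mark TCACGTG or the palindrome, on the strand of the gene. The first 3 genes shown hold several copies, Atp6v0d1 and Atp6v1a are proton pump genes with the palindrome, and Naglu, Glb1 and Sgsh are hydrolase genes with 1 copy that moved in different ways with myelin.
Gla chrX:134601182-134601244, minus strand: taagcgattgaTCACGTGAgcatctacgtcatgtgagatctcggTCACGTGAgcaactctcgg
Lamp1 chr8:13159088-13159160, plus strand: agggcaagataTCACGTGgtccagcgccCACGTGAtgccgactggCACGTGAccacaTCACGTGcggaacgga
Mcoln1 chr8:3500436-3500491, plus strand: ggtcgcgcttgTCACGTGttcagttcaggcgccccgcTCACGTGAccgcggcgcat
Atp6v0d1 chr8:105566050-105566079, minus strand: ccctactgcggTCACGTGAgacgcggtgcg
Atp6v1a chr16:44139373-44139402, minus strand: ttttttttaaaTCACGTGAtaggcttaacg
Naglu chr11:101070009-101070037, plus strand: caaccttcaggTCACGTGgcccgaggtcg
Glb1 chr9:114401018-114401046, plus strand: ctgcttctgagTCACGTGgcctacagagg
Sgsh chr11:119355522-119355550, minus strand: ggcctgccgtgCACGTGAccgtggggagc
Lamp1 held 4 copies within the last 62 bases before its start, and Gla and Mcoln1 held 2 each, as did Atp6v0b, which is not shown. A match is a description of the letters and not of binding.

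Library totals, in units of 1000000 counts, were 15.3 to 21.3 in microglia, 14.3 to 23.5 in the agonist series and 14.4 to 21.0 in the inhibitor series. Levels are given as counts per 1000000 (CPM), scaled between libraries by TMM and not corrected for transcript length, so levels of different genes are not compared. Tlr7 stood at 172 to 192 CPM in the means of the 4 WT groups and at 1.58 to 2.27 CPM in those of the 4 knockout groups. Microglial markers summed to 3646 to 5082 CPM over 10 genes in the cultures, and neuronal markers to 6.19 to 14.8 CPM over 8 genes. Choroid plexus markers, summed over 8 genes, moved with genotype in males: 164 to 298 CPM in WT DMSO libraries and 8.48 to 32.1 CPM in knockout DMSO libraries. A change is written below as a log2 difference ± its standard error, and is said to be called when its adjusted p from edgeR's quasi-likelihood test, adjusted over all genes tested, is under 0.05.

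With myelin, transcripts of most proton pump genes and of a part of the degradative proteins rose. Those of Tfeb and Mitf among the MiT factors fell throughout, and Tfe3 fell in 3 of 4 comparisons. The comparison asks how microglia of each sex and genotype differ after myelin, and its 4 versions use separate libraries, ordered here as male WT, female WT, male knockout and female knockout. With myelin 28 of the 42 genes were higher in each of the 4, against 20.0%, 19.3%, 18.0% and 20.8% of all tested genes. Lower were 6, 11, 13 and 11 of the 42, against 19.4%, 21.1%, 20.2% and 20.4% of all genes. The median change over the 42 genes was 0.27, 0.23, 0.20 and 0.22, beside medians of 0.00, 0.00, -0.01 and 0.01 over all genes. The same 28 genes rose in all 4 comparisons, 6 fell in all 4, 7 fell in some of them, Gusb was called in none, and 0 were called in both directions.

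**Figure D1:**
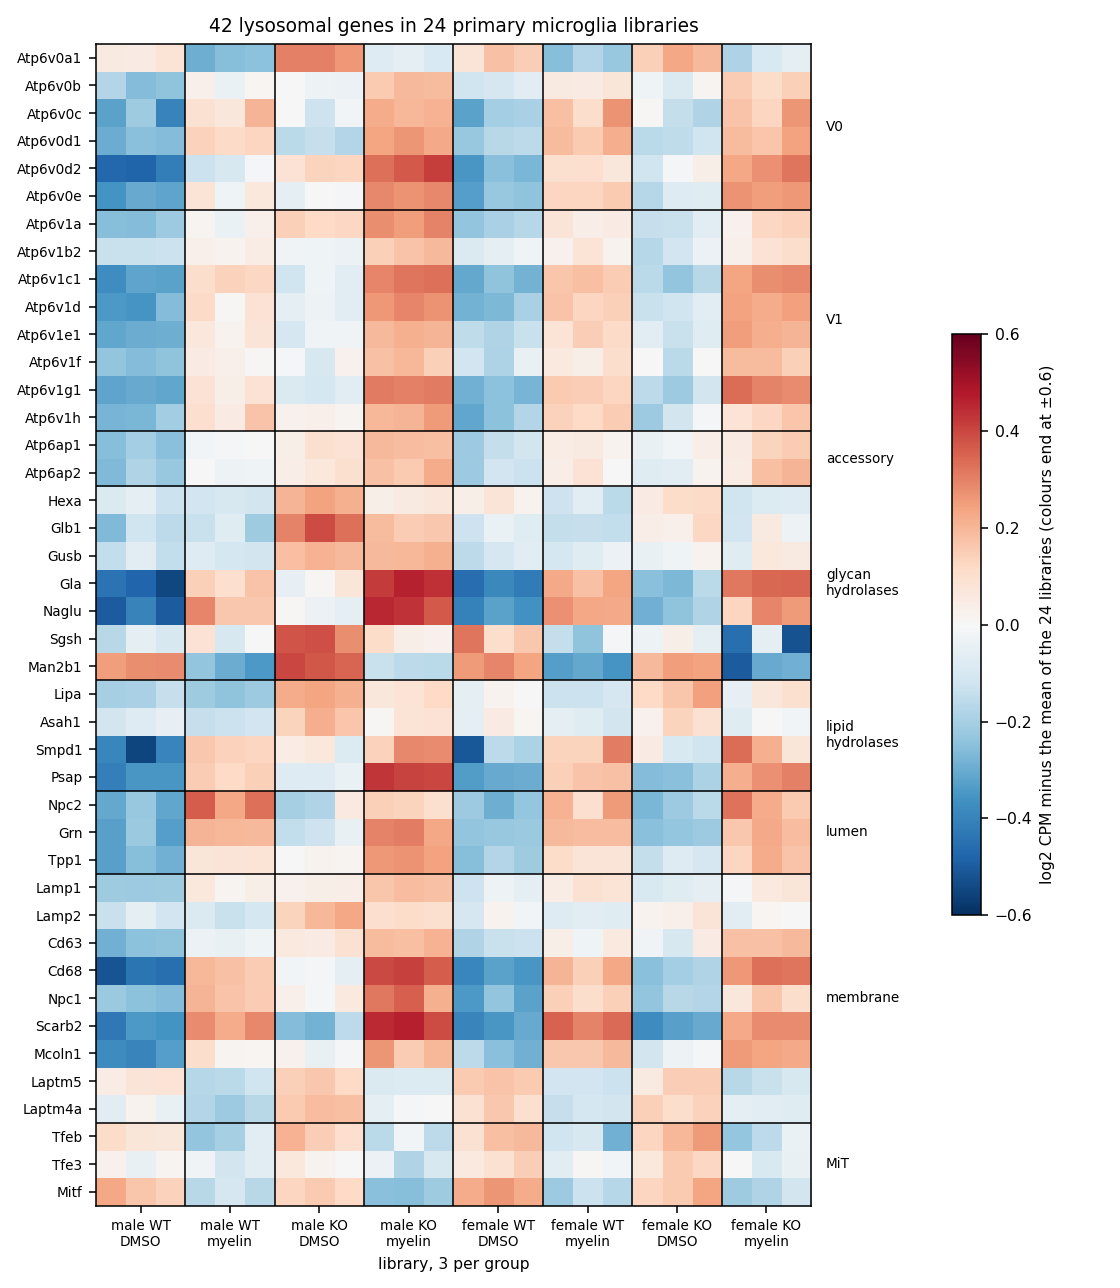
Level of each of the 42 genes in each of the 24 microglia libraries, as log2 CPM minus the gene's mean over the 24 libraries. Rows are genes grouped by role, columns are libraries grouped by sex, genotype and treatment, and colours end at a log2 difference of 0.6 in either direction. The median over the 42 genes is lowest in the male WT DMSO libraries (-0.26 to -0.24) and highest in the male knockout myelin libraries (0.19 to 0.21), while Man2b1, Atp6v0a1, Tfeb and Mitf run the other way with myelin.

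Pump transcripts of both sectors rose with myelin. All 8 V1 subunits, which form the ATP-splitting head and stalk, rose in each of the 4 comparisons, with medians of 0.36, 0.32, 0.23 and 0.27. Of the 6 V0 subunits, which form the proton channel, 5 rose in each comparison. The exception was Atp6v0a1, 1 of the alternative a subunits, which fell by 0.33, 0.35, 0.36 and 0.30 (largest adjusted p of the 4, edgeR, 1.35e-12). Tcirg1 and Atp6v0a2, which encode other a subunits and were not among the 42, rose in all 4 comparisons, by 0.36, 0.27, 0.16 and 0.26 for Tcirg1 and by 0.23, 0.29, 0.16 and 0.21 for Atp6v0a2. Both accessory proteins rose, Atp6ap1 by 0.23, 0.20, 0.11 and 0.12, and Atp6ap2, the (pro)renin receptor, by 0.21, 0.20, 0.12 and 0.19. Reads shared between Atp6v0c and its 2 listed pseudogene rows, or between Cd63 and its pseudogene row, may have been split, since the rules of the counting are not known here.

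Atp6v1c1, a V1 subunit of the stalk, had the largest mean change of the pump genes. In WT libraries it stood at 228, 237 and 236 CPM in male DMSO, 318, 325 and 322 in male myelin, 239, 249.9 and 243 in female DMSO, and 331, 334 and 328 in female myelin. In knockout libraries it stood at 272, 290.4 and 283 CPM in male DMSO, 362, 369 and 372 in male myelin, 264, 251 and 263 in female DMSO, and 348, 359 and 361 in female myelin. Every myelin library lay above every DMSO library of its sex and genotype. The changes were 0.46, 0.44, 0.38 and 0.46, each ± 0.03 (largest adjusted p, edgeR, 1.14e-15).

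Among the glycosidases and glycan hydrolases the direction was divided. Naglu, which removes N-acetylglucosamine from heparan sulfate, and Gla, which removes terminal galactose from glycolipids such as globotriaosylceramide, rose in all 4 comparisons. Man2b1, the acid alpha-mannosidase, fell in all 4. Hexa, the alpha subunit of beta-hexosaminidase, and Sgsh, the heparan sulfamidase, fell in 3 of the 4, with male WT the exception for both (-0.02 and 0.10). Each of the Sgsh calls was lost in some fits that left out a library. Glb1, the beta-galactosidase, was called in male knockout (-0.17 ± 0.04, adjusted p 0.000659, edgeR) and gave 0.04 in male WT, -0.06 in female WT and -0.09 in female knockout, none of these 3 called. Gusb, the beta-glucuronidase, gave 0.03, 0.04, 0.01 and 0.03, none of them called.

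Naglu in WT libraries stood at 127, 137 and 127 CPM in male DMSO, 221, 202 and 202 in male myelin, 136, 144 and 140.3 in female DMSO, and 218, 212 and 211 in female myelin. Its knockout libraries held 181, 176 and 173 CPM in male DMSO, 247, 243 and 233 in male myelin, 148, 153 and 159 in female DMSO, and 197, 221 and 215 in female myelin. The groups with and without myelin did not overlap in any pair, and the male knockout started from the highest DMSO level. The changes were 0.67, 0.61, 0.45 and 0.46, each ± 0.04 (largest adjusted p, edgeR, 3.67e-14).

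For Gla the WT libraries held 171, 168 and 159.6 CPM in male DMSO, 257, 250.02 and 263 in male myelin, 169.8, 178 and 174 in female DMSO, and 273, 263 and 274 in female myelin. The knockout libraries held 226, 234 and 245 CPM in male DMSO, 312, 321 and 316 in male myelin, 196, 193 and 208 in female DMSO, and 290.5, 296 and 297 in female myelin. All myelin libraries were above their DMSO libraries, and the lowest of all 24 were WT DMSO libraries. The changes were 0.63, 0.63, 0.43 and 0.56 (largest adjusted p, edgeR, 1.01e-15).

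Man2b1 moved the other way. Its WT libraries stood at 862, 878 and 880.2 CPM in male DMSO, 614, 588 and 569 in male myelin, 864, 888 and 853 in female DMSO, and 576, 584 and 565 in female myelin. Its knockout libraries stood at 955, 938 and 922 CPM in male DMSO, 660.3, 648 and 647 in male myelin, 828, 862 and 856 in female DMSO, and 512, 588 and 593 in female myelin. No myelin library reached any DMSO library. The gene fell by 0.56, 0.59, 0.53 and 0.59 on the log2 scale (largest adjusted p, edgeR, 6.01e-16).

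Of the 4 genes for lipid digestion, Psap, the precursor of the saposins that present sphingolipids to their hydrolases, and Smpd1, acid sphingomyelinase, rose in all 4 comparisons. Smpd1 rose by 0.59, 0.46, 0.23 and 0.26, with standard errors of 0.07 to 0.08. Lipa, acid lipase, which frees cholesterol from its esters, gave -0.05, -0.11, -0.13 and -0.14, and Asah1, acid ceramidase, -0.05, -0.08, -0.12 and -0.11. For both the male WT change was not called and the other 3 were. The Asah1 calls in female WT and male knockout, and the Smpd1 call in male knockout, were lost in some fits that left out a library.

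Psap in WT libraries stood at 12197, 12710.1 and 12725 CPM in male DMSO, 18028, 17616 and 17873 in male myelin, 12872, 13166 and 13176 in female DMSO, and 17883, 18264 and 18310.1 in female myelin. Its knockout libraries stood at 15353, 15384 and 15787 CPM in male DMSO, 21799, 21485 and 21402 in male myelin, 13524, 13631 and 14233 in female DMSO, and 18885, 19622 and 20024 in female myelin. The 3 male knockout myelin libraries were the highest of all 24, and the 3 male WT DMSO libraries the lowest. With standard errors of 0.02 it was the most precisely measured of the large changes, at 0.51, 0.47, 0.48 and 0.50 (largest adjusted p, edgeR, 7.76e-25).

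The other lumen proteins all rose. Npc2, the soluble protein that hands cholesterol to Npc1, rose by 0.59, 0.44, 0.23 and 0.46, each ± 0.06, and Tpp1, a tripeptidyl peptidase, by 0.37, 0.30, 0.24 and 0.28. Grn, progranulin, which is cut into granulins in the lysosome, stood in WT libraries at 1872, 2007 and 1866 CPM in male DMSO, 2700.4, 2695 and 2683 in male myelin, 1993, 2005 and 2010.3 in female DMSO, and 2687, 2670.4 and 2665 in female myelin. Its knockout libraries held 2114, 2149.7 and 2277 CPM in male DMSO, 2884, 2898 and 2757 in male myelin, 1970.2, 1998 and 2014 in female DMSO, and 2625, 2747 and 2668 in female myelin. Its groups with and without myelin stayed apart in both sexes and genotypes. The changes were 0.49, 0.42, 0.38 and 0.43 (largest adjusted p, edgeR, 2.92e-18).

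Of the 9 membrane proteins, 6 rose in all 4 comparisons: Scarb2, Cd68, Npc1, Mcoln1, Lamp1 and Cd63. Npc1, the membrane cholesterol exporter, rose by 0.42, 0.43, 0.27 and 0.31, and Mcoln1, the calcium channel TRPML1, by 0.41, 0.40, 0.22 and 0.29. The 2 abundant structural glycoproteins parted: Lamp1 rose by 0.25, 0.14, 0.14 and 0.11, while Lamp2 gave -0.01, -0.04, -0.09 and -0.06, called in male knockout alone. Laptm5 and Laptm4a, small transmembrane proteins of late endosomes and lysosomes, fell in all 4, Laptm5 by 0.22, 0.28, 0.23 and 0.25 and Laptm4a by 0.16, 0.23, 0.20 and 0.19.

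Scarb2, or LIMP-2, the receptor that carries glucocerebrosidase to the lysosome, had the largest mean change of the 42. Its WT libraries stood at 191, 203 and 200.2 CPM in male DMSO, 313, 300.1 and 314 in male myelin, 195, 202 and 208 in female DMSO, and 328, 315 and 325 in female myelin. Its knockout libraries stood at 214, 211 and 230.1 CPM in male DMSO, 350.5, 355 and 337 in male myelin, 198, 205 and 208 in female DMSO, and 300.4, 313 and 313 in female myelin. All 12 myelin libraries lay above all 12 DMSO libraries. The changes were 0.64, 0.68, 0.67 and 0.60 (largest adjusted p, edgeR, 1.58e-21).

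Cd68, or macrosialin, a late endosomal glycoprotein of phagocytes, in WT libraries stood at 935, 987 and 980.3 CPM in male DMSO, 1537, 1513 and 1487 in male myelin, 1021, 1073 and 1053 in female DMSO, and 1543, 1481 and 1574 in female myelin. Its knockout libraries held 1322, 1334 and 1286 CPM in male DMSO, 1763, 1779.6 and 1720.0 in male myelin, 1127, 1161 and 1182 in female DMSO, and 1602, 1683 and 1672 in female myelin. The DMSO level of male knockout lay above all other DMSO libraries and below every myelin library. The changes with myelin were 0.64, 0.55, 0.42 and 0.51 (largest adjusted p, edgeR, 3.38e-19).

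The transcripts of the MiT factors did not follow those of most of the other genes. Tfeb in WT libraries stood at 53.1, 51.8 and 51.6 CPM in male DMSO, 41.7, 42.8 and 46.9 in male myelin, 52.4, 55.8 and 56.3 in female DMSO, and 45.2, 45.9 and 40.2 in female myelin. Its knockout libraries stood at 56.8, 54.5 and 52.7 CPM in male DMSO, 43.9, 48.6 and 44.1 in male myelin, 53.7, 56.3 and 58.7 in female DMSO, and 41.9, 44.1 and 47.8 in female myelin. Each set of myelin libraries was below its DMSO libraries. Tfeb fell by 0.25, 0.32, 0.26 and 0.34, each ± 0.06 (largest adjusted p, edgeR, 0.000383), and Mitf by 0.32, 0.41, 0.37 and 0.34, each ± 0.04 (largest adjusted p 1.73e-09).

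Tfe3 changed less. Its WT libraries stood at 137, 130.3 and 136 CPM in male DMSO, 132, 124 and 128 in male myelin, 139.6, 143 and 148 in female DMSO, and 129, 135 and 133 in female myelin. Its knockout libraries stood at 140.2, 136 and 134 CPM in male DMSO, 131, 118 and 125 in male myelin, 140.2, 149 and 146 in female DMSO, and 134, 126 and 130.0 in female myelin. The male WT groups overlapped, and the other 3 pairs of groups did not. The changes were -0.07, -0.12, -0.13 and -0.16, of which the male WT value was not called (adjusted p 0.195, edgeR). The calls in female WT and male knockout were lost in some fits that left out a library.

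**Figure D2:**
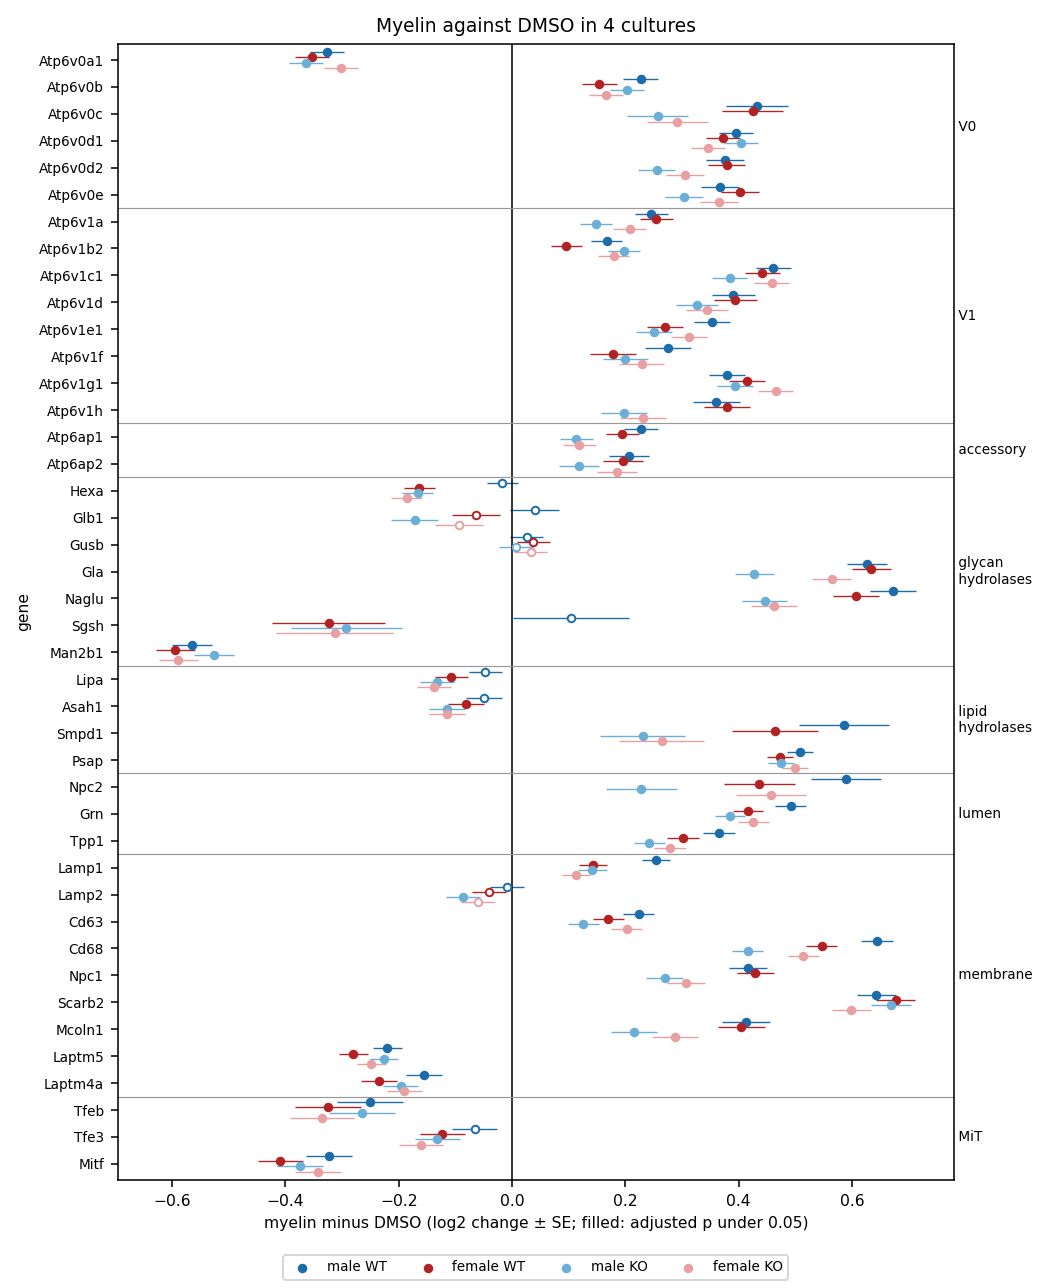
Log2 change with myelin for each of the 42 genes in male WT, female WT, male knockout and female knockout microglia, with 1 standard error either side; filled points have an adjusted p under 0.05. The 4 points of a gene mostly lie on the same side of 0, from Scarb2, Cd68, Naglu and Gla on the right to Man2b1, Mitf, Atp6v0a1 and Tfeb on the left.

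The 10 genes with TCACGTG in their window and the 25 without can be set side by side. With it the medians were 0.31, 0.31, 0.21 and 0.25 and without it 0.22, 0.18, 0.12 and 0.19, and 8 of the 10 and 14 of the 25 rose in each comparison. Glb1 and Sgsh, both with 1 copy, were the 2 that did not rise. No test of this difference was made.

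Other transcripts moved beside these changes. The 10 microglial markers summed to 4768 to 5082 CPM over the 12 DMSO libraries and to 3646 to 4026 CPM over the 12 myelin libraries. In male WT, female WT and male knockout, 8, 8 and 6 of the 10 were called lower and 2, 1 and 1 higher. Of these markers Cx3cr1 fell by 6.41, 5.69, 5.47 and 6.17 in male WT, female WT, male knockout and female knockout. Tmem119 gave 0.38, 0.30, 0.46 and 0.34, called in male WT and male knockout alone. The 8 oligodendrocyte markers summed to 203 to 241, 257 to 308, 209.5 to 242.5 and 186 to 202 CPM with DMSO and to 539 to 639, 649 to 749, 563 to 627 and 526 to 889 CPM with myelin, in the same order of cultures. In each comparison 2 of these 8 were called higher, and 1, 4, 4 and 3 lower, and 0 of the 8 were at 3 counts or fewer throughout a group. Of the 6 border macrophage markers 4 could be tested, and all 4 were lower with myelin in each comparison. The part of these shifts in the lysosomal values was not tested.

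Without Tlr7 most of these genes were higher in male microglia, and fewer were in female microglia. Knockout and WT were compared within each sex and treatment, listed for DMSO first (male, then female) and then for myelin (male, then female). Higher in the knockout were 38, 19, 34 and 12 of the 42 genes, against 11.6%, 5.42%, 10.1% and 3.80% of all tested genes. Lower were 0, 0, 1 and 0 of the 42, against 9.32%, 6.48%, 10.6% and 3.48% of all genes. The median change was 0.27, 0.08, 0.17 and 0.05, and the median standard error was 0.03 in each. All 19 genes that rose in female DMSO microglia also rose in male DMSO microglia. The counts in females rested on single libraries: 8 of 42 were called in female DMSO without WT replicate 1 and 11 without knockout replicate 3, and 7 in female myelin without WT replicate 1 and 6 without knockout replicate 3.

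Every role but the MiT factors was raised in male DMSO microglia. Higher there were all 6 V0 subunits, all 8 V1 subunits, both accessory proteins, all 7 glycosidases and glycan hydrolases, all 4 lipid genes, 2 of 3 other lumen proteins and all 9 membrane proteins. In female DMSO microglia the counts were 2, 4, 2, 4, 2, 1 and 4 in the same order. None of the 3 MiT factors was called in any of the 4 comparisons, with changes between -0.10 and 0.07 and a smallest adjusted p of 0.0962 (Mitf in male myelin, edgeR). Genes higher in all 4 comparisons numbered 9: Atp6v0d2, Atp6v0e and Atp6v1g1 of the pump, the hydrolases and activators Gla, Lipa, Psap and Tpp1, and the membrane proteins Cd63 and Cd68. Npc2 stood apart, at 0.18, 0.03, -0.18 and 0.05, of which only the lower value in male myelin was called (adjusted p 0.0444, edgeR), and that call was lost without any of 5 of the 6 male myelin libraries, WT replicate 2 being the exception.

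Atp6v0d2, a V0 subunit best known from osteoclasts and macrophages, had the largest mean knockout change. Its male libraries stood at 387, 384 and 402 CPM in WT DMSO, 569.7, 589 and 587 in knockout DMSO, 491, 502 and 531 in WT myelin, and 675, 692 and 715 in knockout myelin. Its female libraries stood at 421, 450.3 and 444 CPM in WT DMSO, 494, 532 and 549 in knockout DMSO, 574, 574 and 563 in WT myelin, and 629, 649 and 670.0 in knockout myelin. Knockout and WT libraries did not overlap in any of the 4 pairs, and the distance was wider in males. The changes were 0.57, 0.26, 0.45 and 0.19, with adjusted p-values (edgeR) of 1.22e-19, 4.01e-08, 1.2e-15 and 5.49e-05.

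Gla, whose libraries are given above, rose by 0.50, 0.19, 0.30 and 0.12, and in each pair all knockout libraries lay above all WT libraries. Its adjusted p-values were 3.11e-17, 4.11e-05, 6.32e-10 and 0.0137 (edgeR).

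Glb1 showed the greatest male change among the hydrolases. Its male libraries stood at 103, 114 and 111 CPM in WT DMSO, 152, 163 and 156 in knockout DMSO, 113, 118 and 107 in WT myelin, and 142, 138 and 139 in knockout myelin. Its female libraries stood at 114, 121 and 118 CPM in WT DMSO, 127, 127 and 135 in knockout DMSO, 112, 113 and 112 in WT myelin, and 115, 129 and 121 in knockout myelin. Knockout libraries were above WT libraries in all 4 pairs, by a narrow margin in females. The changes were 0.52, 0.14, 0.31 and 0.11, and the last of these was not called (adjusted p-values 7.79e-15, 0.0165, 1.1e-07 and 0.105, edgeR).

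Lipa, which fell or was not called with myelin, was higher in the knockout throughout. Its male libraries stood at 1279, 1286 and 1335 CPM in WT DMSO, 1713, 1730.3 and 1703 in knockout DMSO, 1267, 1244 and 1265 in WT myelin, and 1542, 1557 and 1595 in knockout myelin. Its female libraries stood at 1414, 1490.2 and 1473 CPM in WT DMSO, 1596, 1652 and 1744 in knockout DMSO, 1346, 1346 and 1372 in WT myelin, and 1422, 1543 and 1573 in knockout myelin. No knockout library overlapped its WT libraries. The changes were 0.40, 0.19, 0.31 and 0.16, with a largest adjusted p of 0.000102 (edgeR).

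Cd68 rose by 0.44, 0.14, 0.21 and 0.11, and Psap by 0.31, 0.08, 0.27 and 0.10. Of the other hydrolases, Naglu gave 0.44, 0.13, 0.21 and -0.02, Gusb 0.32, 0.09, 0.30 and 0.09, Hexa 0.31, 0.05, 0.16 and 0.02, and Sgsh 0.45, -0.21, 0.06 and -0.20 with standard errors of 0.10. The first 3 changes of Naglu and of Gusb were called, as were the 2 male changes of Hexa and the male DMSO change of Sgsh. Man2b1 and Scarb2, which moved most with myelin, differed little: 0.10, -0.03, 0.14 and -0.03 for Man2b1 and 0.14, 0.01, 0.17 and -0.06 for Scarb2, with only the male values called. The male DMSO call of Man2b1 was lost without any 1 of the 6 libraries, and that of Scarb2 without knockout replicate 3 (0.09).

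**Figure D3:**
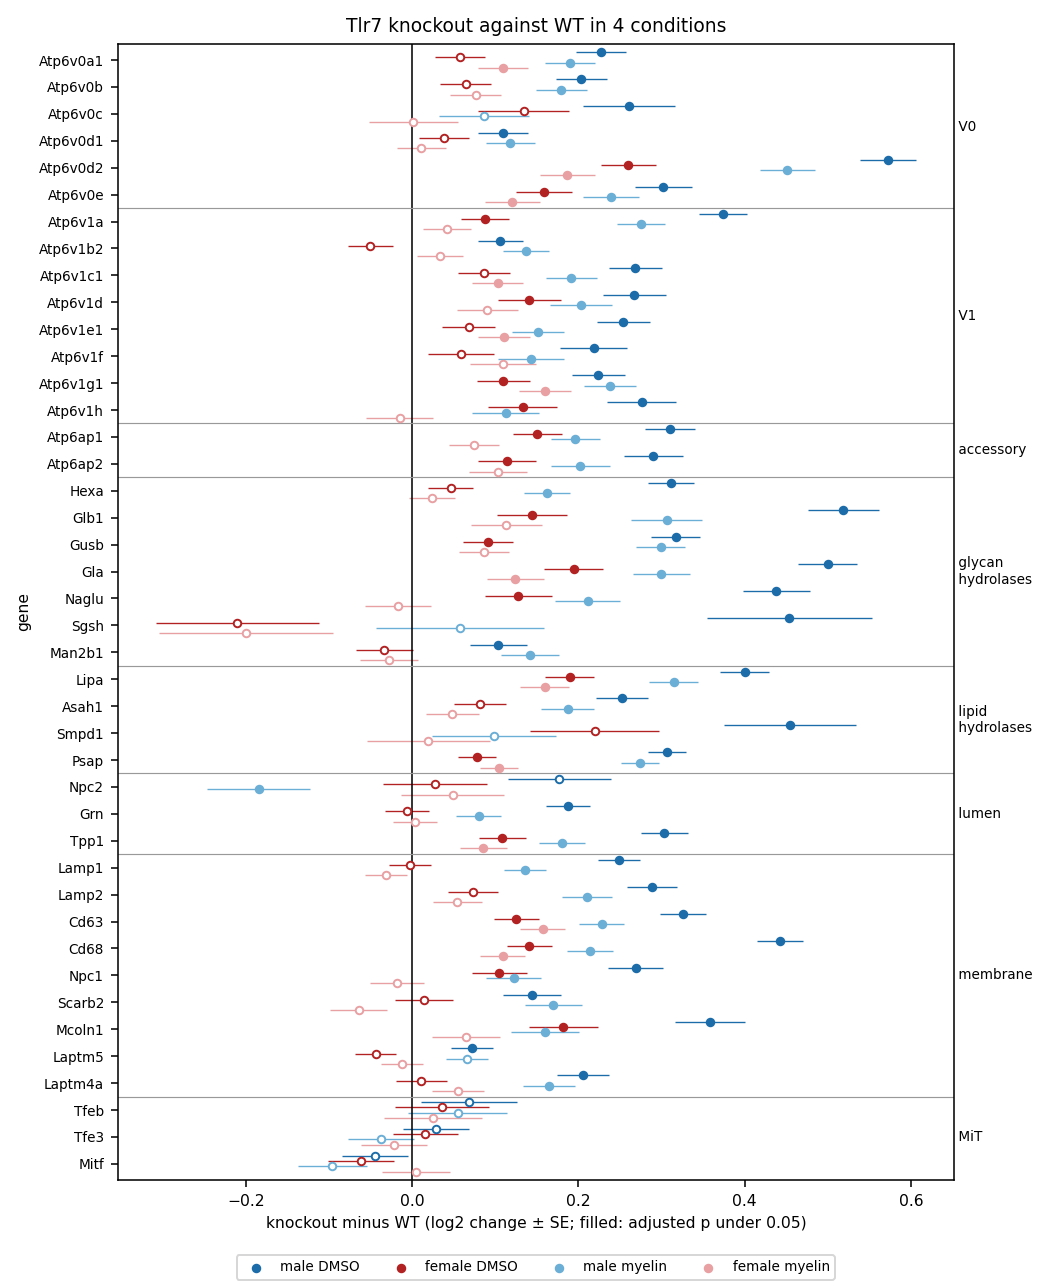
Log2 change in Tlr7 knockout against WT for each of the 42 genes in microglia of either sex with DMSO and with myelin, with 1 standard error either side; filled points have an adjusted p under 0.05. The male points lie mainly to the right of the female points of the same gene, and Tfeb, Tfe3 and Mitf cluster at 0.

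**Figure D4:**
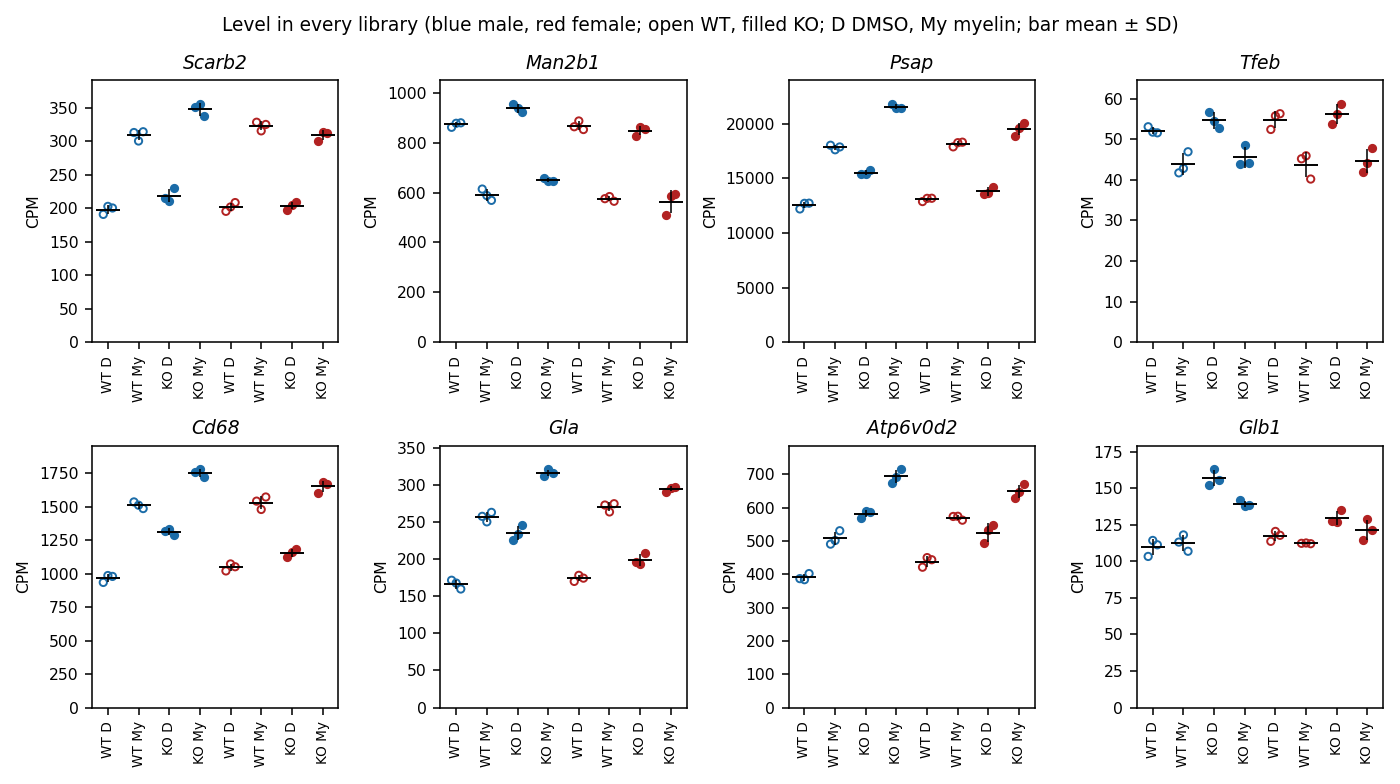
CPM of Scarb2, Man2b1, Psap, Tfeb, Cd68, Gla, Atp6v0d2 and Glb1 in each microglia library, by sex, genotype and treatment, with group means and standard deviations of 3 libraries; each panel has its own axis. Scarb2 and Man2b1 part by treatment with little regard to genotype. Atp6v0d2 and Glb1 part by genotype, most widely in males, and Atp6v0d2 also rises with myelin.

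Markers of other cells moved with genotype beside these changes. The 8 choroid plexus markers summed to 164 to 298 CPM in male WT DMSO and 8.48 to 32.1 CPM in male knockout DMSO, where Kcnj13, Otx2 and Aqp1 were at 3 counts or fewer, and to 195 to 267 and 10.3 to 21.1 CPM with myelin. In females the sums were 113 to 195 CPM in WT DMSO, 60.6 to 692 CPM in knockout DMSO, 115 to 273 CPM in WT myelin and 55.6 to 625 CPM in knockout myelin. Fibroblast and pericyte markers summed to 17.5 to 31.7 CPM in male WT DMSO, 5.17 to 9.54 CPM in male knockout DMSO, 7.03 to 12.97 CPM in female WT DMSO and 8.05 to 23.1 CPM in female knockout DMSO. Border macrophage markers summed to 1370 to 1474 and 967 to 983 CPM in male WT and knockout DMSO, and to 1390 to 1410 and 905 to 947 CPM in the female groups. Pdgfra, of oligodendrocyte precursors, changed by -0.84, 0.48 and -1.02 in the first 3 comparisons and gave -0.07, not called, in female myelin.

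A fit with the log levels of Ttr, a choroid plexus gene, and Pdgfra as covariates gave 23, 11, 5 and 15 of the 42 genes higher in the knockout, in the order above. Over all tested genes that fit called 3.68%, 5.82%, 2.41% and 7.44% in either direction. Its medians for the 42 genes were 0.23, 0.09, 0.13 and 0.06, with median standard errors of 0.06, 0.04, 0.07 and 0.03. The 5 called in male myelin were Atp6v0d2, Atp6v1g1, Glb1, Psap and Cd68. With myelin against DMSO the same fit called 28, 27, 26 and 18 genes higher and 6, 8, 9 and 7 lower, where it called 36.0%, 33.5%, 29.0% and 16.8% of all genes. Its median standard error in female knockout was 0.06, against 0.03 without the covariates.

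Whether the myelin change differed between genotypes was tested as an interaction. In males 6 of the 42 genes were called, all with a smaller rise or a larger fall in the knockout, against 2.56% of all tested genes in either direction: Cd68 (-0.23 ± 0.04, adjusted p 7.52e-05), Npc2 (-0.36 ± 0.09, 0.0362), Naglu (-0.23 ± 0.06, 0.0127), Glb1 (-0.21 ± 0.06, 0.0388), Gla (-0.20 ± 0.05, 0.0109) and Hexa (-0.15 ± 0.04, 0.0187), all by edgeR. Cd68 rose by 0.64 in male WT and 0.42 in male knockout, and its call held when each library was left out in turn, which was not so for the other 5. The count was 1 of 42 without male WT DMSO replicate 3 or male WT myelin replicate 1, 2 without male knockout myelin replicate 1, and 3 without male WT DMSO replicate 1, any of the 3 male knockout DMSO libraries or male knockout myelin replicate 3. In females 0 of the 42 were called by edgeR, against 0.919% of all genes, with 4 at an unadjusted p under 0.05 and a smallest adjusted p of 0.290.

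Whether the knockout change differed between the sexes was tested in the same way. With DMSO 27 of the 42 genes were called, all with a lower log2 change in females, against 7.53% of all genes in either direction. The difference, female minus male, was negative for 42 of 42, with a median of -0.18. By role, 3 V0 and 4 V1 subunits, both accessory proteins, 6 glycosidases and glycan hydrolases, 3 lipid genes, 2 other lumen proteins, 7 membrane proteins and 0 MiT factors were called. Cd68 gave -0.30 ± 0.04 (adjusted p 1.24e-07), Glb1 -0.37 ± 0.06, Sgsh -0.66 ± 0.14 (0.000782) and Atp6v0d2 -0.31 ± 0.05 (4.46e-06, edgeR). With myelin 14 of 42 were called, again all lower in females, against 6.51% of all genes, and the median was -0.11. The count with myelin was 9 without male knockout myelin replicate 2 and 26 without female knockout myelin replicate 3. In the fit with Ttr and Pdgfra 0 of 42 were called in either interaction, where 0.187% and 0.380% of all genes were, and the medians were -0.13 and -0.07 with median standard errors of 0.09 and 0.08.

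Female and male WT microglia differed in fewer of these genes. With DMSO 11 of 42 were higher in females, against 1.96% of all genes, and 0 were lower, against 1.75%. These were Atp6v0b (0.13), Atp6v0d2 (0.17), Atp6v1e1 (0.14), Atp6v1f (0.13), Hexa (0.14), Lipa (0.17), Lamp1 (0.14), Cd63 (0.11), Cd68 (0.12), Laptm5 (0.09) and Laptm4a (0.15). The count was 7 without male WT DMSO replicate 1 or female WT DMSO replicate 3. With myelin Atp6v0d2 (0.17) and Lipa (0.11) were higher in females, 2 of 42 against 1.07% of all genes, and 0 were lower, against 1.62%. Lipa was no longer called without male WT myelin replicate 2 or 3 or without any of the 3 female WT myelin libraries. With Ttr and Pdgfra as covariates 0 of 42 were called in either comparison, where 0.138% and 0.0968% of all genes were. The medians in that fit were 0.07 with DMSO and 0.01 with myelin (0.08 and 0.04 without the covariates), with median standard errors of 0.06 and 0.07 (0.03 and 0.03 without them). Atp6ap1, Atp6ap2, Gla, Lamp2 and Tfe3 lie on the X chromosome, as Tlr7 does. None of these 5 was called in WT DMSO, where 11 of the other 37 were, and the medians were 0.07 and 0.08.

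The median of the 42 genes in each library puts these comparisons on a single scale, as a log2 deviation from the mean of all 24 libraries. Male WT libraries lay at -0.26, -0.24 and -0.24 with DMSO and at 0.06, -0.00 and 0.02 with myelin, and male knockout libraries at 0.03, 0.03 and 0.05 with DMSO and at 0.19, 0.20 and 0.21 with myelin. Female WT libraries lay at -0.20, -0.16 and -0.13 with DMSO and at 0.07, 0.08 and 0.07 with myelin, and female knockout libraries at -0.07, -0.08 and -0.02 with DMSO and at 0.10, 0.15 and 0.15 with myelin. Male knockout DMSO libraries thus overlapped male WT myelin libraries on this median, while female knockout DMSO libraries lay between female WT DMSO and female WT myelin.

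Other lysosomal genes were counted from lists that did not include the 42. Of all tested genes, 20.0%, 19.3%, 18.0% and 20.8% rose and 19.4%, 21.1%, 20.2% and 20.4% fell with myelin. In the knockout 11.6%, 5.42%, 10.1% and 3.80% of all genes rose and 9.32%, 6.48%, 10.6% and 3.48% fell. The orders of comparisons are those used above. Several of the counts that follow lie near these shares, and none was tested against them. Of 29 further hydrolases and cofactors, 14, 14, 14 and 12 rose and 8, 10, 9 and 8 fell with myelin, with medians of 0.24, 0.12, 0.20 and 0.01. Acp5, the tartrate-resistant acid phosphatase, rose by 1.48, 1.51, 1.29 and 1.12, and Gaa, acid alpha-glucosidase, by 0.93, 0.88, 0.74 and 0.84. Naaa, which hydrolyses N-acylethanolamines, fell by 1.11, 0.98, 0.74 and 0.84. In the knockout 21, 7, 19 and 3 of the 29 rose and 2 fell in each comparison, among the former Galns, which acts on keratan sulfate, by 0.42, 0.14, 0.31 and 0.15.

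Of 17 further membrane proteins and transporters tested, 8, 6, 5 and 6 rose and 3, 4, 4 and 6 fell with myelin. Slc17a5, the sialic acid exporter, fell by 0.54, 0.44, 0.55 and 0.59, while the nucleoside transporter Slc29a3 rose by 0.48, 0.54, 0.37 and 0.41 and the metal transporter Slc11a1 by 0.57, 0.50, 0.38 and 0.34. In the knockout 10, 4, 2 and 1 rose and 0, 0, 1 and 2 fell. Of 18 genes of delivery and biogenesis, 11, 9, 9 and 9 rose and 2, 2, 2 and 3 fell with myelin. The mannose 6-phosphate receptors Igf2r (0.44, 0.52, 0.33 and 0.47) and M6pr (0.44, 0.41, 0.34 and 0.39) and the phosphotransferase subunit Gnptg (0.51, 0.41, 0.39 and 0.39), which serves to make their ligand, all rose. In the knockout 10, 3, 6 and 2 rose and 0, 1, 0 and 1 fell, with Igf2r (0.41, 0.35, 0.30 and 0.29) and the sorting receptor Sort1 (0.39, 0.29, 0.60 and 0.21) called in all 4.

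Of 17 genes for nutrient sensing at the lysosome, 11, 9, 7 and 9 rose and 0, 1, 0 and 0 fell with myelin, led by the small GTPase Rragd at 0.81, 0.91, 0.60 and 0.65. Rragd also rose in the knockout, by 0.97, 0.63, 0.76 and 0.37, where 8, 1, 7 and 1 of the 17 rose and 0, 1, 0 and 0 fell. Of 10 partners and autophagy targets of the MiT factors, 4, 2, 2 and 3 rose and 3, 3, 4 and 4 fell with myelin. The glycoprotein Gpnmb rose by 0.76, 0.67, 0.42 and 0.57, while Gabarapl1 fell by 0.50, 0.56, 0.57 and 0.58 and Wipi1 by 0.53, 0.47, 0.53 and 0.54, both genes of autophagosome formation. In the knockout Mcoln3, a relative of Mcoln1, rose by 3.23, 1.63, 2.47 and 1.52, on few counts and with standard errors of 0.41, 0.36, 0.35 and 0.32, and Gpnmb by 0.66, 0.23, 0.32 and 0.13, with 5, 5, 5 and 3 of the 10 higher and 2, 2, 3 and 1 lower. Of 4 further pump subunits tested, 2 rose with myelin in each comparison and 0 fell.

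In hippocampus 41 of the 42 genes could be tested. Atp6v0d2 was the exception, with at most 4 counts in any agonist library and 3 in any inhibitor library, and it gets no fold change there. Microglial markers summed to 372 to 495 CPM in the agonist libraries and 223 to 427 CPM in the inhibitor libraries, and neuronal markers to 5019 to 6411 and 5423 to 7438 CPM, so the lysosomal transcripts of all cells were measured together. In such samples fewer cells of a type and less RNA per cell cannot be told apart.

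Gardiquimod changed none of the 41 by edgeR in either sex: 0 called in males against 0.221% of all tested genes, with 9 at an unadjusted p under 0.05, and 0 in females against 0.0232%, with 2. The medians were 0.01 and 0.06, and the smallest adjusted p-values 0.0655 and 0.791. Npc2 came nearest. It ranged from 78.8 to 112.5 CPM (median 91.6) in saline males and from 108 to 125 CPM (median 114) in gardiquimod males. Those groups overlapped, and the difference was 0.31 ± 0.08 (adjusted p 0.0655, edgeR), although DESeq2 called it (0.0147), as did edgeR without the filter on low counts (0.0468). In females Npc2 ranged from 93.8 to 118 CPM (median 101) with saline and from 90.1 to 124 CPM (median 111) with gardiquimod.

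The phagocyte gene Cd68 ranged from 6.24 to 8.10 CPM (median 6.93) in saline males, 4.51 to 9.08 (8.04) in gardiquimod males, 6.0 to 9.22 (6.34) in saline females and 6.79 to 8.74 (7.42) in gardiquimod females. Laptm5 had medians of 44.3, 44.99, 44.03 and 43.6 CPM in the same order, and Grn of 49.2, 48.6, 46.4 and 50.6 CPM. All of these groups overlapped. Lamp1 had medians of 313, 349.7, 343 and 333 CPM, with a male difference of 0.14 ± 0.05 (adjusted p 0.193, edgeR), and Cd63 of 119.8, 136, 114 and 128 CPM, with a male difference of 0.26 ± 0.10 (adjusted p 0.210). Choroid plexus markers summed to 323 to 5679 CPM (mean 1814) in saline males and 1806 to 6155 CPM (mean 4240) in gardiquimod males. In females they summed to 296 to 6553 CPM (mean 2857) with saline and 154 to 7087 CPM (mean 4723) with gardiquimod. The part of these markers in the values above was not tested. Saline females and males differed in 0 of the 41 by edgeR, against 0.430% of all genes, with 1 at an unadjusted p under 0.05 and a median of -0.01, and there sex and age cannot be told apart.

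The inhibitor likewise gave 0 of 41 by edgeR in each sex, against 0.105% of all genes in males and 0.0876% in females, with 10 and 4 at an unadjusted p under 0.05. Pump transcripts leaned opposite ways. Their median changes were -0.27 over the V0 and -0.40 over the V1 subunits in males and 0.18 and 0.26 in females. The difference between the sexes was not tested. Atp6v0d1, the stalk subunit of V0, stood at 166, 185 and 198 CPM in the 3 control males and from 137 to 158 CPM (median 142) in the 6 inhibitor males. In females it stood at 171, 151 and 151 CPM with control and at 195, 203, 156, 173 and 168 CPM with inhibitor. The male groups did not overlap and the female groups did, and the changes were -0.33 ± 0.10 (adjusted p 0.197, edgeR) and 0.18 ± 0.11 (0.514).

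Gla stood at 11.4, 15.4 and 13.01 CPM in control males and from 7.84 to 9.89 CPM (median 9.25) in inhibitor males, a difference of -0.56 ± 0.15 (adjusted p 0.165, edgeR). In females it stood at 12.2, 7.53 and 7.52 CPM with control and at 13.8, 10.3, 13.1, 11.2 and 12.4 CPM with inhibitor. DESeq2 called 2 genes lower in males, Atp6v0d1 (-0.34, adjusted p 0.0383) and Gla (-0.56, 0.0446), and edgeR on the 9 male libraries alone called 2, Atp6v0c (-0.68, 0.0373) and Gla (-0.57, 0.0430). Astrocyte markers summed to 3848 to 8365 CPM in control males and 9525 to 13241 CPM in inhibitor males, and to 6767 to 11046 and 2869 to 10751 CPM in the female groups. Choroid plexus markers summed to 4460 to 4751 CPM in control males and 240 to 6550 CPM in inhibitor males. In females they summed to 164 to 2342 CPM with control and 4304 to 6075 CPM with inhibitor, without overlap. The part of either set of markers in these values was not tested. Ages also differed within the inhibitor groups.

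**Figure D5:**
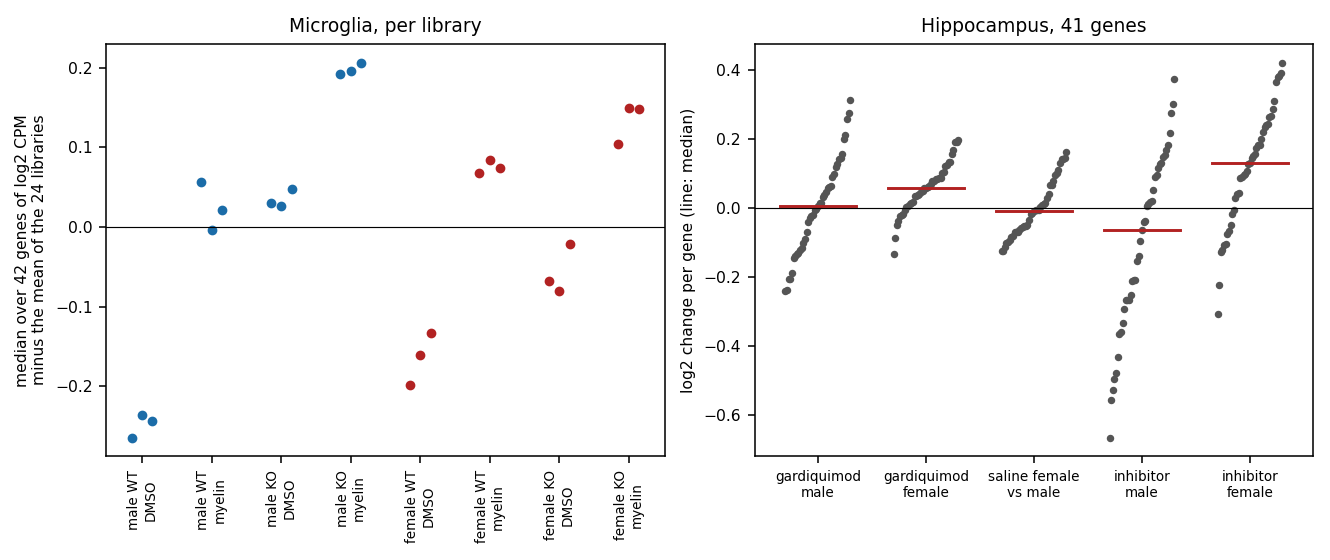
Left, the median log2 deviation of the 42 genes in each of the 24 microglia libraries, by sex, genotype and treatment. Right, the log2 change of each of 41 genes in the 5 hippocampal comparisons, none of them with an adjusted p under 0.05; the medians lie between -0.06 and 0.13.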

How the data were processed

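The deposited tables hold read counts per gene, made by the authors from QuantSeq 3′ FWD libraries, per the labels' protocols. The submitters' processing notes name DESeq2 1.38.3 and the builds GRCm38 and mm10; the aligner, the counting rules and the annotation were not given in the sources used here. A 3′ tag count is not corrected for length and can be split between near-identical copies.

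Counts were fitted with edgeR 4.0.16 in R 4.3.3 (TMM scaling, filterByExpr, robust quasi-likelihood, 1 mean per group, 2-sided contrasts), separately for the 24 microglia, 28 agonist and 17 inhibitor libraries. P-values were adjusted by Benjamini-Hochberg over all 14468, 17218 or 17128 genes tested, with a threshold of 0.05. The standard error of a log2 change is its size divided by the square root of F. The fit was tested on simulated data. No 2 libraries of a group agreed within sampling noise (smallest chi-square per degree of freedom 2.21). Levels are CPM with TMM scaling. Totals of 14.3 to 23.5 (in units of 1000000 counts) and common biological coefficients of variation of 0.0507, 0.132 and 0.179 set the precision.

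The genes, the other lysosomal lists and the cell type markers were chosen with earlier results of these data known. Values of every library were printed for the 8 genes with the largest mean myelin change called in all 4 cultures, the 4 with the largest mean knockout change called in at least 3 comparisons, Tfeb and Tfe3. From each other list at most 3 genes called in all 4 cultures were named for myelin, and at most 2 for the knockout, by size; 1 gene that this rule names is not reported here. In hippocampus Cd68, Laptm5, Grn, Cd63, Lamp1 and Atp6v0d1 were described, and Npc2 and Gla were added after their values were seen, as the genes nearest to or past the threshold in some fit. Alternatives were RLE scaling, no filter on low counts, DESeq2 1.42.0, the compared groups alone, leaving out each library in turn (microglia and inhibitor), the replicate number as a block, and Ttr and Pdgfra as covariates (microglia). Promoter windows came from RefSeq.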

Additional observations from a re-analysis of the deposited data

Results flagged for a closer look

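Results whose change differed between 2 groups by a test of the difference itself make up most of this section. For the myelin change in males, knockout minus WT, the differences in log2 change were Hexa (-0.15), Glb1 (-0.21), Gla (-0.20), Naglu (-0.23), Npc2 (-0.36) and Cd68 (-0.23).

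The knockout change with DMSO, female minus male, differed for 27 genes. Among the V0 and V1 subunits and accessory proteins of the pump these were Atp6v0a1 (-0.17), Atp6v0b (-0.14), Atp6v0d2 (-0.31), Atp6v1a (-0.29), Atp6v1b2 (-0.16), Atp6v1c1 (-0.18), Atp6v1e1 (-0.19), Atp6ap1 (-0.16) and Atp6ap2 (-0.18). Among the hydrolases and other lumen proteins these were Hexa (-0.27), Glb1 (-0.37), Gusb (-0.23), Gla (-0.31), Naglu (-0.31), Sgsh (-0.66), Lipa (-0.21), Asah1 (-0.17), Psap (-0.23), Grn (-0.19) and Tpp1 (-0.19). Among the membrane proteins these were Lamp1 (-0.25), Lamp2 (-0.21), Cd63 (-0.20), Cd68 (-0.30), Npc1 (-0.16), Laptm5 (-0.12) and Laptm4a (-0.19).

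With myelin the same difference was called for 14 genes. Of the V0 and V1 subunits and accessory proteins of the pump the differing genes were Atp6v0d2 (-0.26) and Atp6v1a (-0.23). Of the hydrolases and other lumen proteins the differing genes were Hexa (-0.14), Glb1 (-0.19), Gusb (-0.21), Gla (-0.18), Naglu (-0.23), Man2b1 (-0.17), Lipa (-0.16), Asah1 (-0.14) and Psap (-0.17). Of the membrane proteins the differing genes were Lamp1 (-0.17), Lamp2 (-0.16) and Scarb2 (-0.23). Choroid plexus markers and Pdgfra moved with genotype in males as given above, and their part in these differences was not tested beyond the fit with Ttr and Pdgfra, in which 0 genes were called for genotype by sex.

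In hippocampus 36 groups of values were checked for a library far from the others, of which chance would set apart about 1 in 20. In gardiquimod females, replicate 1 stood apart at 8.74 CPM for Cd68. In gardiquimod males, replicate 6 stood apart below the others for both Cd68 (4.51 CPM) and Grn (40.4 CPM).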

How the results depend on the processing

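With RLE scaling 605 of 618 single-gene changes kept their side of the threshold. The count was 591 with no filter, 605 by DESeq2 and 605 on the compared groups alone. Those called kept their direction too, and direction was not compared for changes called in neither fit. With Ttr and Pdgfra as covariates, 25 genes were called for myelin in female knockout (39 as reported), 23, 11 and 5 for the knockout in male DMSO, female DMSO and male myelin (38, 19 and 35), 0 and 0 for genotype by sex with DMSO and myelin (27 and 14), and 0 and 0 for female against male WT (11 and 2, with a DMSO median of 0.07 against 0.08). Over all genes that fit called 2430 for myelin in female knockout (5959 without covariates), 27 and 55 for genotype by sex (1089 and 942) and 20 and 14 for female against male WT (536 and 389). That fit turned Atp6v1b2 (-0.021) and Man2b1 (-0.014) in male DMSO and Atp6v1h (-0.078) in male myelin. It raised the median standard error of the male knockout changes from 0.03 to 0.06 with DMSO and 0.07 with myelin, and the cause was not tested. For genotype by myelin in males the count of 6 was 2 with no filter, 10 on the compared groups alone and 10 with the replicate block. In males gardiquimod gave 1 with no filter and 1 by DESeq2, and the inhibitor 2 by DESeq2 and 2 on the compared groups alone. The causes were not tested.

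Leaving out each library in turn gave 34 to 34, 37 to 39, 38 to 40 and 38 to 41 called genes for myelin in male WT, female WT, male knockout and female knockout. It gave 35 to 37, 8 to 20, 31 to 35 and 6 to 15 for the knockout, 1 to 7 and 0 to 0 for genotype by myelin in males and females, 21 to 29 and 9 to 26 for genotype by sex, 7 to 12 and 1 to 3 for female against male WT, and 0 to 0 for the inhibitor in each sex. Genes called in every such fit numbered 34 of 34, 35 of 39, 35 of 41 and 38 of 39 for myelin, and 34 of 38, 8 of 19, 31 of 35 and 5 of 12 for the knockout. Those 5 were Atp6v0d2, Atp6v1g1, Lipa, Psap and Cd63. Lost in some fits for myelin were Atp6v1b2, Sgsh, Asah1 and Tfe3 in female WT and Sgsh in female knockout. In male knockout they were Atp6ap2, Sgsh, Asah1, Smpd1, Lamp2 and Tfe3. For the knockout in male myelin they were Atp6v1h, Npc2, Grn and Npc1.

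To look for pairing in microglia, the group mean of each gene was subtracted from its log CPM, and the remainders were correlated between libraries. For same-numbered libraries these remainders correlated above 0.1 in 3 of 12 pairs across treatments, 3 of 12 across genotypes and 0 of 12 across sexes. Differently numbered libraries did so in 1 of 24, 0 of 24 and 0 of 24 pairs, in the same order. The largest correlations across treatments were 0.44 for the same number and 0.28 for different numbers. Whether the numbers pair the libraries was not tested. The main fit took no pairing, since the titles name no shared litter or day. With the replicate block 34, 39, 41 and 39 genes were called for myelin, 38, 21, 36 and 14 for the knockout, 10 and 0 for genotype by myelin, 29 and 16 for genotype by sex and 13 and 2 for female against male WT. For the hippocampal libraries alone, no paired analysis was possible because their numbers follow sample order only. The hippocampal tests had a median standard error of 0.08 (agonist) or 0.14 to 0.15 (inhibitor), beside 0.03 in microglia, so changes as small as many of those in microglia were less detectable there.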

Other observations

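Atp6v0a1 (chr11:101009452-101063719, plus strand) and Naglu (chr11:101070012-101077672, plus strand) are neighbours on the same strand by the coordinates in the deposited table, and they moved in opposite directions with myelin. Atp6v0a1 fell by 0.33, 0.35, 0.36 and 0.30 and Naglu rose by 0.67, 0.61, 0.45 and 0.46, in the order male WT, female WT, male knockout and female knockout. In the knockout with DMSO both were higher in males, by 0.23 and 0.44.

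Genes of 1 pathway also parted. For heparan sulfate, Naglu rose with myelin in all 4 comparisons while Sgsh fell in 3, and for sphingolipids Smpd1 and Psap rose in all 4 while Asah1 fell in 3. Some fits that left out a library lost the Sgsh call, in each of its 3 comparisons. The same held for Asah1 in female WT and male knockout, and for Smpd1 in male knockout. Npc2 and Npc1, which act in succession on cholesterol, both rose with myelin, but in male knockout against male WT with myelin Npc1 was higher (0.12) and Npc2 lower (-0.18). Both of these knockout calls were lost in some of the fits that left out a library.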
